A study of Mus musculus with 18 samples.

Results

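Haemoglobin and erythroid genes were followed in the spinal cord of young mice with spinal muscular atrophy (SMA) and of their controls. The set holds 6 genes: the alpha globin genes Hba-a1 and Hba-a2, the beta globin genes Hbb-bs and Hbb-bt, Alas2, which encodes the erythroid form of the first enzyme of haem synthesis, and Slc4a1, which encodes band 3, the anion exchanger of the red cell membrane. Members were the gene loci of the deposited tables that carry one of these symbols, 11 of 58570 loci, because Alas2 names 6 loci and each other gene 1. The samples were 18 libraries of total RNA from whole spinal cords of the SMNΔ7 line, sequenced after removal of ribosomal RNA with a stranded kit. They form 6 groups of 3 libraries: heterozygotes, which served as controls, and homozygotes, called SMA, each at postnatal days 2, 6 and 10 (P2, P6 and P10). As background, SMNΔ7 is a model in which affected pups lack mouse Smn1 in all cells and live on human SMN transgenes; the labels give no further alleles, and do not say which transgenes the controls carried, whether the 3 libraries of a group came from separate animals or whether blood was washed out of the tissue.

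Haemoglobin is a tetramer of alpha and beta chains, each holding a haem group, and red cell precursors make it in large amounts under the control of the transcription factors GATA1 and KLF1. Mouse red cells lose their nucleus, but young ones, the reticulocytes, keep globin mRNA for a time, so any tissue sampled with its blood holds globin transcripts. Alas2 and Slc4a1 belong to the same programme: Alas2 sets the rate of haem synthesis in erythroid cells, and band 3 exchanges chloride for bicarbonate and anchors the membrane skeleton. In RNA from whole tissue, fewer cells of a type and less RNA per cell cannot be told apart.

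The paired globin genes have near-identical sequences, which limits how reads can be shared between them. Coding sequences are shown because the copies are told apart in them by a single base, printed as a capital. Hba-a1 (ENSMUSG00000069919.7, chromosome 11 from 32283511 to 32284465, plus strand, mouse build GRCm38) and Hba-a2 (ENSMUSG00000069917.7, chromosome 11 from 32296489 to 32297298, plus strand) have coding sequences of 429 bases that differ at 1 base, C381T, counted from the first base of the start codon with Hba-a1 first. The last 300 coding bases of Hba-a1, exons joined, come from chr11:32283958-32284391, and the Hba-a2 stretch around the difference from chr11:32297130-32297190.
Hba-a1: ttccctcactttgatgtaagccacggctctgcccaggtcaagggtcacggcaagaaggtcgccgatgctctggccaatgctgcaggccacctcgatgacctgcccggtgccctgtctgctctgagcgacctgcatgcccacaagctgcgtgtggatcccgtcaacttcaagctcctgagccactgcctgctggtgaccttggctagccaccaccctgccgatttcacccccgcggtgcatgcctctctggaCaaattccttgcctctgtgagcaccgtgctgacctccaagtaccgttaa
Hba-a2: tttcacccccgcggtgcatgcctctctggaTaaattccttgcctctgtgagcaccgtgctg
Hbb-bs (ENSMUSG00000052305.6, chromosome 7 from 103826534 to 103828096, minus strand) and Hbb-bt (ENSMUSG00000073940.3, chromosome 7 from 103812524 to 103813996, minus strand) have coding sequences of 444 bases that differ at 1 base, C417T, with Hbb-bs first. The last 300 coding bases of Hbb-bs, exons joined, span chr7:103826665-103827618, and the Hbb-bt stretch chr7:103812656-103812713, both written on the minus strand.
Hbb-bs: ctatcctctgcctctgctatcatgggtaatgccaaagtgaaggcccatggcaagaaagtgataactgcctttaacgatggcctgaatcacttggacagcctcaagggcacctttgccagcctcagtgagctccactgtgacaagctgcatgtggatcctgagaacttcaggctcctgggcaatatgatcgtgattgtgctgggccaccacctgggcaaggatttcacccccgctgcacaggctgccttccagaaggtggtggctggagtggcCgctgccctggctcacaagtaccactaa
Hbb-bt: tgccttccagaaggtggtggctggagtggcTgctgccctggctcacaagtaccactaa
Coding identity was 99.8% in both pairs, and the transcripts shared runs of 415 bases in the alpha pair and 430 in the beta pair. A fragment from inside such a run has the same sequence in both copies, and how the authors' counting split such fragments is not given in the sources used here. The level of a single copy is therefore uncertain, and sums over each pair are given beside it.

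The upstream sequences of the members hold motifs named for erythroid promoters, shown here because the levels of 3 of the 4 globin genes were alike over the groups. RefSeq (GRCm38.p6) lists promoters for 5 of the 6 members, all but Slc4a1. Starts in this paragraph are those of RefSeq, which differ from the starts of the GENCODE gene spans given in the text. A window can therefore reach into such a span. Within 250 bases before the start, both strands were searched for GATAA, the core of the site that GATA1 binds, for the KLF1 box, spelled CACCC, for the box that factor NF-Y binds, spelled CCAAT, and for the TATA box, searched as TATAA. The last reads the same way on both strands where a T stands before it. The upstream windows of Hba-a1 and Hba-a2 share a run of 247 bases, so only the Hba-a2 window is printed (chr11:32296242-32296488, plus strand), with matches in capitals.
Hba-a2: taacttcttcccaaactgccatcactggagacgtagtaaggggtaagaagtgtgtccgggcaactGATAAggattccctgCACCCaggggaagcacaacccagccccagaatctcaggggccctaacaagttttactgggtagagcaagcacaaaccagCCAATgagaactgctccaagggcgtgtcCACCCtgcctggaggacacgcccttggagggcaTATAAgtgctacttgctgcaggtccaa
For the beta genes, 30 bases around the GATAA match (Hbb-bs chr7:103828120-103828149, Hbb-bt chr7:103814110-103814139) and around a match to the KLF1 and NF-Y boxes (Hbb-bs chr7:103827992-103828021, Hbb-bt chr7:103813986-103814015) are given on the minus strand.
Hbb-bs GATAA: gttctctgcacaGATAAggacaaacattat
Hbb-bt GATAA: attagctgcaagGATAAgaacagacactac
Hbb-bs KLF1 and NF-Y boxes: ccaCACCCtggtaagggCCAATctgctcac
Hbb-bt KLF1 and NF-Y boxes: taaCACCCtggcATTGGCCAATctgctcag
In Hbb-bt the printed stretch holds the NF-Y box on each strand, as adjacent matches that share no base, 80 and 75 bases before the start, and a further match on the other strand lies 36 bases before the start. The Alas2 window (chrX:150547167-150547374, plus strand) has its GATAA on the other strand, printed here as TTATC, and its KLF1 boxes lie nearer the start than the printed stretch.
Alas2: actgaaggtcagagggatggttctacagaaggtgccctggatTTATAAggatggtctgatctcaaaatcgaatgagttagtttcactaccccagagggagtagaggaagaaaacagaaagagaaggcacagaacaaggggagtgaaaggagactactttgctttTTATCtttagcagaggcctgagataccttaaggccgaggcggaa
GATAA was present in 5 of these 5 windows, against 22.6% of 32851 RefSeq promoters searched over the same length. The KLF1 box was present in 5 of 5, against 52.0%, and the letters TATAA in 5 of 5, against 22.8%. A TATAA match lay 27 to 30 bases before the start in each globin window. In Alas2 the only matches, which overlap, lay 207 and 208 bases before it. The near-identical Hba-a1 and Hba-a2 windows are not separate cases in these counts. The NF-Y box was present in the 4 globin windows and not in that of Alas2, against 33.8% of promoters. The GATAA match lay 182 bases before the start in Hba-a1, 185 in Hba-a2, 209 in Hbb-bs, 204 in Hbb-bt and 86 in Alas2. A match describes the letters only, since these data hold no measure of binding.

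The deposited tables give 1 value per group and locus, in FPKM (fragments per kilobase, scaled for depth) with an interval around it from the authors' model, and an estimated fragment count. No value per library was analysed, so each value below is the authors' combined value for its group, and the interval is the only measure of spread. Estimated fragments summed to 6881671 to 7386338 per group. Whether these values were scaled for depth is not given, so sequencing depth was not assessed. The tissue label was met by neuronal Snap25, at FPKM 109 to 165, and by motor neuron Chat, at 1.31 to 3.67, in all 6 groups. Smn1 went against a label: it was FPKM 2.70, 4.46 and 3.54 in controls at P2, P6 and P10, 0.0210 in SMA at P2, 0 in SMA at P6 and 2.82 in the group labelled SMA at P10. Mbp, a myelin gene, was FPKM 150, 1012 and 4281 in controls and 1840, 1130 and 2294 in SMA at P2, P6 and P10, so the SMA group at P2 lay above that at P6. Both the P2 and the P10 groups labelled SMA thus stand apart, and results across ages are given with and without them.

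Adult globin mRNA was abundant in every group. Hbb-bs was FPKM 399, 509 and 419 in controls at P2, P6 and P10, and 278, 430 and 281 in SMA at P2, in SMA at P6 and in the group labelled SMA at P10. Hba-a1 was FPKM 342, 443 and 285 in controls and 218, 358 and 167 in the groups labelled SMA, in the same order. P6 held the highest value of each gene in either genotype, and at every age the group labelled SMA was the lower. The interval reached 38.4% to 46.9% of the FPKM to either side for Hbb-bs and 39.8% to 45.6% for Hba-a1, so the intervals of the genotypes overlapped at all 3 ages. Among protein-coding loci, Hbb-bs ranked 22nd, 16th and 22nd by FPKM in controls and 47th, 23rd and 35th in the groups labelled SMA. Hba-a1 ranked 32nd, 20th and 40th in controls, and 78th, 28th and 109th in the groups labelled SMA. As the globin transcripts are short, the 4 globin genes took a small share of all fragments, from 0.0218% (Wilson 95% interval 0.0208% to 0.0229%) in the group labelled SMA at P10 to 0.0503% (0.0486% to 0.0519%) in controls at P6. These intervals treat the estimated fragments as raw counts and cover counting error only on that reading.

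The second copies stood far below. Hbb-bt was FPKM 4.85, 7.87 and 5.15 in controls at P2, P6 and P10 and 3.92, 7.60 and 3.00 in the groups labelled SMA, resting on 12.2 to 36.2 estimated fragments. Like Hbb-bs, it was highest at P6 in either genotype and lower in the group labelled SMA at each age. Hba-a2 was FPKM 2.80, 2.58 and 1.52 in controls and 1.62, 2.32 and 1.67 in the groups labelled SMA, on 4.79 to 9.52 estimated fragments. Its order was another one, with controls at P2 highest and controls at P10 lowest. Hbb-bt made up 1.05% to 1.74% of the beta sum and Hba-a2 0.529% to 0.992% of the alpha sum, which are shares of an uncertain split.

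Summed over both copies, alpha globin was FPKM 345, 446 and 287 in controls at P2, P6 and P10, and 219, 360 and 169 in the groups labelled SMA. Beta globin was FPKM 404, 517 and 424 in controls and 282, 438 and 284 in the groups labelled SMA. All 4 genes together gave FPKM 749, 963 and 711 in controls and 501, 798 and 453 in the groups labelled SMA, so the SMA value was 66.9% of control at P2, 82.8% at P6 and 63.7% at P10. The alpha sum stood at 63.5%, 80.7% and 58.8% of control and the beta sum at 69.8%, 84.7% and 67.0%. Alpha over beta was 0.855, 0.863 and 0.675 in controls and 0.778, 0.823 and 0.593 in the groups labelled SMA. Beta was thus the higher sum in all 6 groups, and the ratio was lowest at P10 in both genotypes. On the log2 scale the ratio ran from -0.75 ± 0.48 in the group labelled SMA at P10 to -0.21 ± 0.42 in controls at P6 (standard errors from the intervals), and differences of this ratio between groups were not tested.

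**Figure D1:**
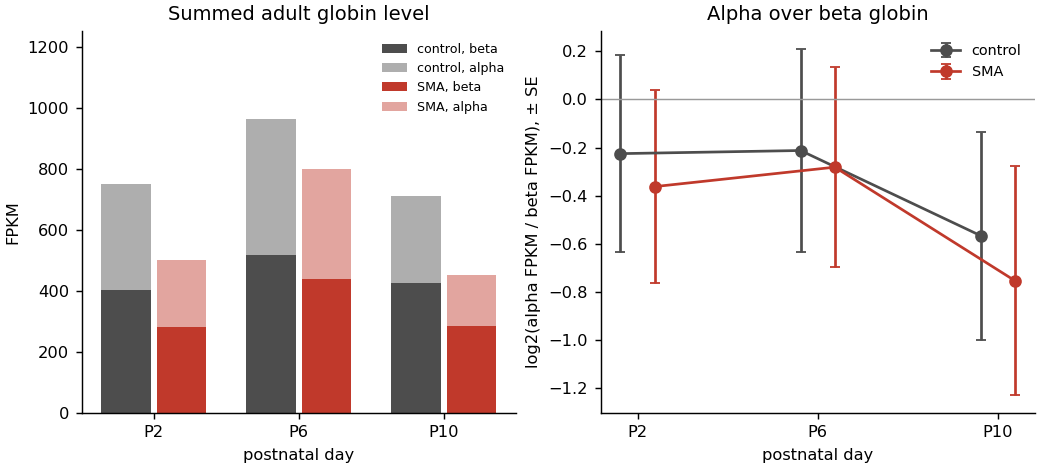
Left, summed FPKM of the beta globin genes (dark, Hbb-bs and Hbb-bt) and alpha globin genes (light, Hba-a1 and Hba-a2) in control (grey) and SMA (red) groups at each postnatal day; right, log2 of alpha over beta FPKM with its standard error. The summed level peaks at P6, at 963 in controls and 798 in SMA, and alpha over beta is lowest at P10 in both genotypes.

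Alas2 and Slc4a1 were far less abundant than the main globin genes. Alas2 (ENSMUSG00000025270.13) lies on chromosome X from 150547375 to 150570638 on the plus strand, inside a deposited locus of 124360 bases (150519519 to 150643878) that also spans Pfkfb1 on the plus strand and Apex2 on the minus strand. Of the 6 loci with its symbol, 1 is numbered among plus-strand loci, with 142 of 145 annotated neighbours in number on the plus strand, and is used here for Alas2; that reading of the numbers is an inference from their order. This locus was FPKM 13.6, 18.9 and 18.1 in controls at P2, P6 and P10 and 13.3, 16.3 and 16.3 in the groups labelled SMA. P2 was lowest in either genotype, and P6 and P10 were close in FPKM. Estimated fragments were 130, 209 and 195 in controls and 119, 181 and 143 in the groups labelled SMA, so by fragments P6 was highest in either genotype. Every lower bound was 0 and the upper bounds lay 117% to 161% above the FPKM, so these groups could not be told apart. The other 5 loci, numbered among minus-strand loci, were at FPKM 2.56 to 5.70 with all 30 lower bounds at 0. Their sum was 19.6, 22.1 and 18.8 in controls and 16.3, 21.1 and 24.2 in the groups labelled SMA, and which transcripts they hold is uncertain.

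Slc4a1 (ENSMUSG00000006574.15, chromosome 11 from 102348824 to 102366203, minus strand) had the widest range over groups. It was FPKM 0.456, 2.41 and 1.84 in controls at P2, P6 and P10, and 0.592, 2.04 and 1.15 in the groups labelled SMA. Both P2 groups lay under FPKM 1, and both P6 groups were highest in their genotype. Estimated fragments were 13.1, 99.8 and 58.6 in controls and 21.3, 75.6 and 46.4 in the groups labelled SMA, the same order by age. Fragments per unit of FPKM went from 28.8 to 41.3 over the groups, so the fold between groups depends on which deposited value is used.

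**Figure D2:**
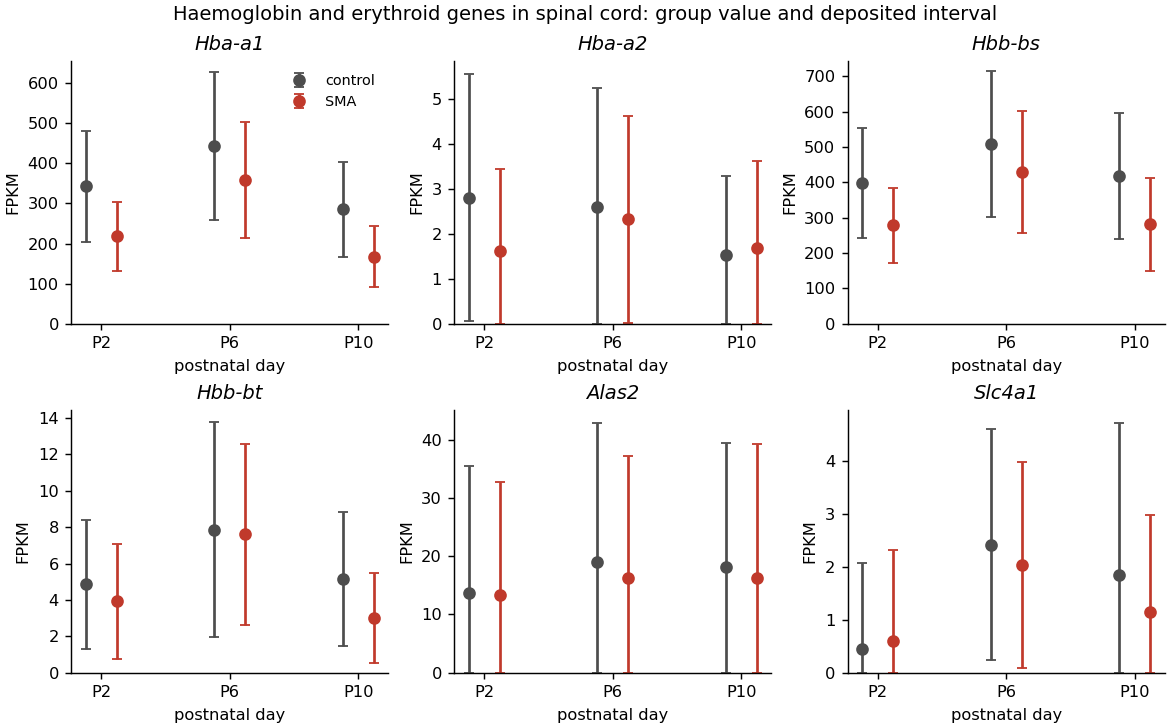
FPKM of the 6 genes against postnatal day in control (grey) and SMA (red) groups; points are the authors' group values and bars the deposited interval. Hba-a1, Hbb-bs, Hbb-bt and Slc4a1 peak at P6 in both genotypes, and the intervals of control and SMA overlap at every age in all 6 panels.

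Ranked by level, neighbouring groups overlapped in 5 of 5 steps for each of the 6 genes. All 15 pairs of groups overlapped for each gene but Hba-a1, for which 14 did. The remaining pair set the group labelled SMA at P10, with an upper bound of FPKM 243.0, against controls at P6, with a lower bound of 258.3. Overlap was also the rule among all genes. For SMA against control, intervals did not overlap for 44 of 19114 genes tested at P2, 23 of 19631 at P6 and 16 of 20157 at P10. The pair of groups that parted for Hba-a1 was not counted over all genes. From low to high, Hba-a1 ran SMA P10, SMA P2, control P10, control P2, SMA P6 and control P6. Hbb-bs followed the same order except that SMA P2 lay below SMA P10 and control P2 below control P10. For Hbb-bt, SMA P10 was lowest, then SMA P2, control P2, control P10, SMA P6 and control P6. Slc4a1 began with control P2 and SMA P2, then SMA P10, control P10, SMA P6 and control P6, and Alas2 with SMA P2 and control P2, then SMA P6, SMA P10, control P10 and control P6. The highest group was 2.66 times the lowest for Hba-a1, 1.83 times for Hbb-bs, 2.63 times for Hbb-bt, 1.85 times for Hba-a2, 1.43 times for Alas2 and 5.30 times for Slc4a1.

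SMA and control groups were compared at each age to ask which transcripts differ with the genotype. At P6, 6 of 6 members had a lower value in SMA, by a median log2 ratio of -0.23, against 39.9% of all genes tested below 0 and a median of 0.07. Hba-a1 stood at a log2 ratio of -0.31 ± 0.43 (standard error, from the deposited interval) and Hbb-bs at -0.24 ± 0.42. The others lay at -0.16 ± 1.05 for Hba-a2, -0.05 ± 0.73 for Hbb-bt, -0.22 ± 1.33 for Alas2 and -0.25 ± 0.97 for Slc4a1. The z test of these ratios, two-sided and with Benjamini-Hochberg adjustment over all 19631 genes tested, called 0 of 6 members, where 0.0458% of all genes were called (9 genes, and 33 at an unadjusted p under 0.05). The Hba-a1 interval ran from -1.15 to 0.53 on the log2 scale and that of Hbb-bs from -1.06 to 0.58, which leaves room both for an SMA level well under the control level and for one above it.

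At P2, Mbp set the SMA group apart, at FPKM 1840 against 150 in controls. The main globins had ratios further below 0 than at P6, a difference between ages that was not tested. Hba-a1 had a log2 ratio of -0.65 ± 0.42 (95% interval -1.47 to 0.16) and Hbb-bs -0.52 ± 0.40 (-1.31 to 0.27). Hba-a2 stood at -0.79 ± 1.10, Hbb-bt at -0.31 ± 0.80 and Alas2 at -0.04 ± 1.60. Slc4a1 was not tested, with FPKM under 1 in both groups; its value was the higher in SMA, 1.30 times control in FPKM and 1.63 times in fragments. All 5 members tested lay below 0, with a median of -0.52, against 51.0% of all genes and a median of -0.01. By the adjusted z test 0 of 5 were called, against 0.126% of 19114 genes (24 genes, and 142 at an unadjusted p under 0.05).

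At P10, with the group labelled SMA near the control level of Smn1, Hba-a1 had a log2 ratio of -0.77 ± 0.45 (95% interval -1.66 to 0.11). Hbb-bs stood at -0.58 ± 0.47 (-1.49 to 0.34) and Hbb-bt at -0.78 ± 0.80. Alas2 was at -0.15 ± 1.34, Slc4a1 at -0.67 ± 1.64 and Hba-a2 above 0 at 0.14 ± 1.21. Of the 6 members 5 lay below 0, with a median of -0.62, against 44.4% of all genes and a median of 0.04. The adjusted z test called 0 of 6, against 0.0397% of 20157 genes (8 genes, and 43 at an unadjusted p under 0.05). In each of the 3 comparisons every member's adjusted p was 1.00 to 3 digits.

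**Figure D3:**
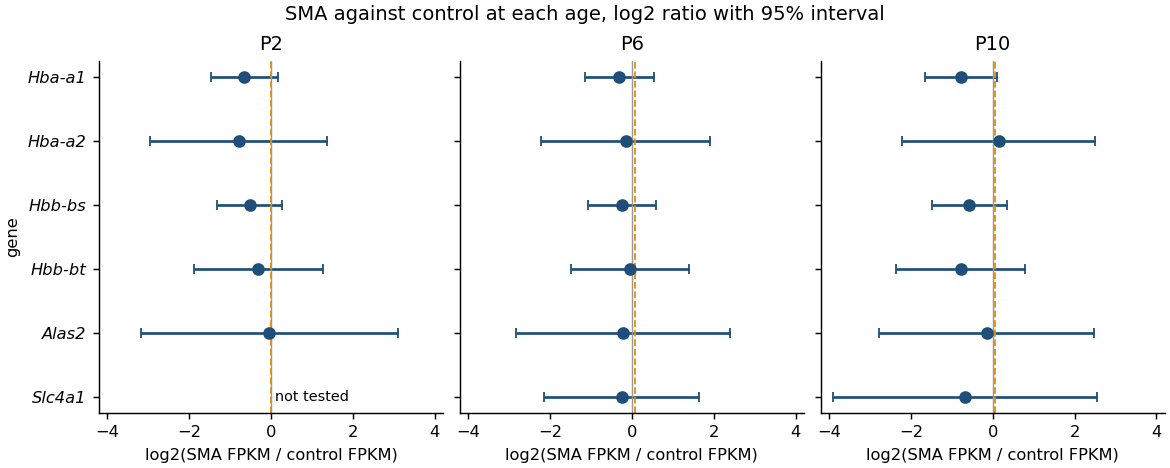
Log2 ratio of SMA over control FPKM for each gene at P2, P6 and P10; points are ratios, bars 95% intervals from the deposited bounds, the grey line 0 and the orange dashed line the median of all genes tested. All points but Hba-a2 at P10 lie left of 0 and every interval crosses it; Slc4a1 at P2 was not tested.

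Across ages, the SMA value was below control at all 3 for 4 of 6 members, Hba-a1, Hbb-bs, Hbb-bt and Alas2. Among 21436 loci with a value above 0 in every group and FPKM 1 or more in at least 1, 6.86% had this order. With P2 and P6 alone, 5 of 6 members did, all but Slc4a1, against 24.5% of loci. A limma fit on log2(FPKM + 1), with age as a factor, treated each age as 1 replicate of the SMA effect. It gave -0.58 ± 0.12 for Hba-a1 (unadjusted p = 0.00373), -0.45 ± 0.11 for Hbb-bs (unadjusted p = 0.00707) and -0.31 ± 0.14 for Hbb-bt (unadjusted p = 0.072). Slc4a1, Hba-a2 and Alas2 stood at -0.15 ± 0.15, -0.19 ± 0.15 and -0.13 ± 0.09. Adjusted over all 21960 genes, p was 0.999 for each of the 6 and 0 of 6 were called, against 0.00455% of genes (1 gene, and 451 at an unadjusted p under 0.05). These standard errors describe how alike the ages were, not the deposited interval.

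Leaving out an age keeps only 4 group values in the fit. Without the P10 groups, the difference was -0.48 for Hba-a1 and -0.38 for Hbb-bs (limma adjusted p = 0.707 for both), and without the P2 groups it was -0.54 and -0.41 (adjusted p = 1 for both). Without the P6 groups it was -0.71 and -0.55 (adjusted p = 1 for both). Hbb-bt moved from -0.31 to -0.15 without P10, -0.33 without P2 and -0.44 without P6. For Hba-a2 the difference was -0.0115 without P2, -0.23 without P6 and -0.32 without P10, for Slc4a1 -0.28, -0.13 and -0.0202, and for Alas2 -0.18, -0.0896 and -0.12. Over the fit with all ages and these 3, Hba-a1 thus ran from -0.71 to -0.48 and Hbb-bs from -0.55 to -0.38, and the difference was below 0 for each of the 6 members in each fit. Whether the difference changed between P2 and P10 was tested directly. The change was -0.12 ± 0.62 for Hba-a1, -0.05 ± 0.62 for Hbb-bs, -0.47 ± 1.13 for Hbb-bt, 0.94 ± 1.64 for Hba-a2, -0.11 ± 2.09 for Alas2 and -1.05 ± 3.76 for Slc4a1. By the adjusted z test 0 of 6 members were called, against 0.0574% of 20916 genes (12 genes, and 187 at an unadjusted p under 0.05).

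By age, most members shared a maximum at P6. In FPKM, Hba-a1, Hbb-bs, Hbb-bt and Slc4a1 were highest at P6 in both genotypes, 4 of 6 members against 7.56% of 21436 loci. Hba-a1, Hbb-bs and Hbb-bt combined this with a lower SMA value at every age, against 1.25% of loci. In SMA, the P6 maximum is set against the P2 and P10 groups, which stand apart by Mbp or Smn1. Hbb-bt rests on an uncertain split of fragments with Hbb-bs, so these genes may not be separate cases. Between P2 and P6 alone, whose comparison was added after the values were seen, 5 of 6 members were higher at P6 in both genotypes, all but Hba-a2, against 32.1% of loci. In controls the log2 ratio of P6 over P2 was 0.37 ± 0.43 for Hba-a1, 0.35 ± 0.42 for Hbb-bs, 0.70 ± 0.77 for Hbb-bt, 0.47 ± 1.51 for Alas2, 2.41 ± 2.68 for Slc4a1 and -0.12 ± 1.05 for Hba-a2. In SMA it was 0.72 ± 0.42 for Hba-a1 (95% interval -0.10 to 1.54), 0.63 ± 0.41 for Hbb-bs (-0.17 to 1.43), 0.96 ± 0.76 for Hbb-bt, 0.29 ± 1.44 for Alas2, 1.78 ± 2.27 for Slc4a1 and 0.52 ± 1.11 for Hba-a2. The adjusted z test called 0 of 6 members in either genotype, against 0.112% of 19622 genes in controls (22 genes, and 125 at an unadjusted p under 0.05) and 0.0312% of 19251 in SMA (6 genes, and 45 at an unadjusted p under 0.05).

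Slc4a1 had the largest age difference of the 6 members. From the deposited counts and their variance, P6 over P2 was 7.62-fold in controls (z test, adjusted p = 0.118) and 3.54-fold in SMA (adjusted p = 1.00), while the FPKM gave 5.30-fold and 3.44-fold. P10 over P2 was 4.47-fold in controls by counts (adjusted p = 0.225). None of these passed the adjusted threshold.

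From P2 to P10 the main globins were near level in controls, with log2 ratios of -0.26 ± 0.42 for Hba-a1 and 0.07 ± 0.43 for Hbb-bs. The remaining members were at -0.89 ± 1.12 for Hba-a2, 0.09 ± 0.75 for Hbb-bt, 0.41 ± 1.46 for Alas2 and 2.01 ± 2.85 for Slc4a1. In the groups labelled SMA, both of which stand apart by Smn1 or Mbp, the same ratios were -0.38 ± 0.45 for Hba-a1, 0.02 ± 0.45 for Hbb-bs, 0.05 ± 1.19 for Hba-a2, -0.39 ± 0.85 for Hbb-bt, 0.30 ± 1.49 for Alas2 and 0.96 ± 2.45 for Slc4a1. Of the 6 members, 0 were called by the adjusted z test in either genotype, against 0.631% of 19956 genes in controls (126 genes, and 701 at an unadjusted p under 0.05) and 0.0602% of 19938 in SMA (12 genes, and 66 at an unadjusted p under 0.05). P10 was set beside P6 as values only. Hba-a1 at P10 was 0.643 of its P6 value in controls and 0.467 in the groups labelled SMA, Hbb-bs 0.824 and 0.654, and Hbb-bt 0.655 and 0.394. Alas2 was close to level by FPKM, at 0.958 and 1.00, but at 0.935 and 0.794 by fragments. Slc4a1 was at 0.761 and 0.566 by FPKM.

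Over the 6 group values the members differed in how alike their levels were. On log2(FPKM + 1), Pearson's r was 0.94 between Hba-a1 and Hbb-bs, 0.93 between Hba-a1 and Hbb-bt and 0.91 between Hbb-bs and Hbb-bt. Alas2 and Slc4a1 had an r of 0.93 with each other. With Hba-a1 they had 0.34 and 0.46, with Hbb-bs 0.61 and 0.65, and with Hbb-bt 0.48 and 0.67. Hba-a2, the member with the fewest fragments, had 0.76 with Hba-a1, 0.62 with Hbb-bs and -0.04 with Alas2. These 6 points share libraries and depth across genes, and the r values are a description.

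Among 577 protein-coding candidates with FPKM 1 or more in every group and a range of at least 1 on the log2 scale, the gene whose levels were most like the members' mean profile was Dcn, the collagen-binding proteoglycan decorin, with r = 0.948 over the 6 groups. Dcn was FPKM 13.7, 21.8 and 16.2 in controls at P2, P6 and P10 and 11.1, 22.2 and 8.14 in the groups labelled SMA. It was the only candidate above 0.9. Col1a2, a chain of fibrillar collagen, followed at 0.865, then Copz2 at 0.855, Ptgds, the prostaglandin D synthase that meninges and oligodendrocytes make, at 0.847, Rcn3 at 0.846, the histone gene Hist1h2bn at 0.834, the proteoglycan gene Ogn at 0.832 and Cnnm4 at 0.824. Against that profile the members themselves had r values of 0.918 for Hba-a1, 0.967 for Hbb-bs, 0.960 for Hbb-bt, 0.765 for Slc4a1, 0.659 for Alas2 and 0.599 for Hba-a2. Each member is part of that mean, which raises its r by construction. The range limit of the candidates was not applied to members, and Hbb-bs, Hba-a2 and Alas2 had ranges of 0.871, 0.596 and 0.481.

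Globin genes of other stages were near or at 0. The embryonic genes Hbb-bh1 and Hbb-bh2 were listed at 0 in all 6 groups. Hba-x, the embryonic zeta globin, was listed at 0 in 5 groups and at FPKM 0.107 in SMA at P2, and Hbb-y, the embryonic epsilon-like gene, at 0 in 5 and at 0.155 in controls at P2. Hbq1a, a theta globin gene, reached FPKM 1.34 in SMA at P2, on 4.70 estimated fragments, against 0.329 in controls, and was not called. Hbq1b stayed between 0.134 and 0.335. Of the 8 other globin symbols 6 were in the table.

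Haem synthesis and mitochondrial iron import run in all cells, and the 12 genes of that list were all tested. Cpox, which encodes coproporphyrinogen oxidase, rose in controls from P2 to P10 by 2.33 ± 0.53 on the log2 scale (adjusted p = 0.00345, z test). In that comparison 0.631% of all genes were called, and Cpox was the 1 member of the list called in any comparison. It was FPKM 4.09, 8.69 and 20.6 in controls at P2, P6 and P10, and 11.1, 10.2 and 14.4 in the groups labelled SMA. The control values increase with age and the SMA values do not follow that order. The groups labelled SMA at P2 and P10 are those that stand apart by Mbp or Smn1, and the cause of this order was not tested. SMA against control, 9 of 12 members were above 0 at P2, 10 of 12 at P6 and 0 of 12 at P10, with medians of 0.14, 0.15 and -0.30. Of all genes tested, 51.0% lay below 0 at P2, 39.9% at P6 and 44.4% at P10, with medians of -0.01, 0.07 and 0.04. The ubiquitous Alas1, which catalyses the same step as Alas2, was FPKM 11.7, 12.9 and 17.0 in controls and 13.1, 13.9 and 13.4 in the groups labelled SMA. Tmem14c, a porphyrin transporter of the mitochondrion, ranged from FPKM 19.3 to 26.3 and Alad, the second enzyme of the pathway, from 14.7 to 16.2.

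Of 22 genes of erythroid maturation and its enzymes, 20 were in the table and 13 or 14 were tested in a comparison. Car2, a carbonic anhydrase that oligodendrocytes also make, rose in controls from P2 to P10 by 1.69 ± 0.46 on the log2 scale (adjusted p = 0.0362, z test). In that comparison 0.631% of all genes were called, and Car2 was the only call of this list. It was FPKM 10.8, 20.6 and 35.0 in controls and 18.2, 23.4 and 25.0 in the groups labelled SMA. Prdx2, an antioxidant enzyme, was highest in the list at FPKM 112 to 157. The list medians for SMA against control were -0.01 at P2, 0.16 at P6 and 0.01 at P10, with 6 of 13, 10 of 14 and 7 of 13 above 0. Below 0 at these ages lay 51.0%, 39.9% and 44.4% of all genes tested, so these counts do not set the list apart.

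Of 17 red cell membrane and surface genes, 8 or 9 were tested against control at each age and 0 were called. The share called among all genes tested was 0.126% at P2, 0.0458% at P6 and 0.0397% at P10. SMA against control, 7 of 8 were above 0 at P2, 7 of 9 at P6 and 0 of 8 at P10, with medians of 0.28, 0.10 and -0.31. Of all genes tested, 51.0% lay below 0 at P2, 39.9% at P6 and 44.4% at P10. Add2, an adducin of the spectrin skeleton, was FPKM 14.4 to 20.1 and Epb41, another protein of that skeleton, 13.6 to 20.1, and both are also made outside blood. Of 8 erythroid transcription factors, 4 reached FPKM 1 and were tested, and 0 were called, against the same shares of all genes called. Bcl11a, a repressor of embryonic and fetal globin genes that neurons also express, was FPKM 9.06 to 15.7, Lmo2 9.95 to 11.6, Zfpm1, the GATA1 cofactor known as friend of GATA, 1.94 to 3.89, and Tal1 1.04 to 1.44.

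The sum over red cell genes of low level was also highest at P6 in either genotype. The 20 genes of the membrane, transcription factor and maturation lists with a mean FPKM above 0 and under 1 were grouped by level after their values were seen, so they are given as a description. Their summed FPKM was 3.29, 8.48 and 6.30 in controls at P2, P6 and P10 and 5.72, 8.89 and 5.45 in the groups labelled SMA. Of the 20, 16 were higher at P6 than at P2 in both genotypes, all but Tmod1, Kel, Ermap and Epor, against 24.6% of 23934 loci under a mean FPKM of 1. Of 22 genes of these lists at a mean FPKM of 1 or more, 8 were, against 31.1% of 18604 loci. Hemgn, an erythroid nuclear protein, was FPKM 0.00526, 0.226 and 0.152 in controls and 0.0672, 0.230 and 0.171 in the groups labelled SMA. Trim10 was 0.0459, 0.334 and 0.260 in controls and 0.148, 0.375 and 0.294 in the groups labelled SMA. In both genes, which were named after their values were seen, both P6 values lay above both P2 values. The P2 values rested on 0.148 and 1.73 estimated fragments for Hemgn and 1.04 and 3.26 for Trim10, in controls and SMA. At P6 the sum over the 20 was 8.89 in SMA against 8.48 in controls, and 7 of the 20 were lower in SMA. Among all genes tested at P6, which had FPKM 1 or more in at least 1 group, 39.9% were lower. The difference of the 20 from the globin sum was not tested. Gata1 was FPKM 0.0089, 0.141 and 0.176 in controls and 0.0383, 0.291 and 0.0114 in the groups labelled SMA, so it was highest at P6 in SMA only. Klf1 was 0.136, 0.503 and 0.0747 in controls and 0.0815, 0.133 and 0.246 in the groups labelled SMA, so it was highest at P6 in controls only.

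Genes of haem and haemoglobin clearance, 7 of 10 of them tested at each age, had 0 calls. Over all genes tested, 0.126% were called at P2, 0.0458% at P6 and 0.0397% at P10. The list medians for SMA against control were 0.12 at P2, 0.08 at P6 and -0.16 at P10. The ferritin genes Fth1 and Ftl1 were the most abundant. Fth1 was FPKM 108, 119 and 288 in controls and 214, 126 and 187 in the groups labelled SMA, and Ftl1 211, 157 and 126 against 190, 170 and 146. Hmox1, the haem oxygenase that haem induces, was FPKM 2.09, 2.28 and 2.43 in controls and 2.47, 2.29 and 1.61 in the groups labelled SMA.

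Markers of other cells that come with blood or with the coverings of the cord are set beside the globin values; their part in the result was not tested. Summed FPKM of 11 neutrophil and marrow markers was 7.37, 9.98 and 7.32 in controls at P2, P6 and P10 and 11.2, 12.5 and 8.95 in the groups labelled SMA. The sum of that list was thus highest at P6 in both genotypes, like the globins, but higher in SMA at each age. It rested on 35.8, 53.9 and 40.7 estimated fragments in controls and 56.5, 58.7 and 53.4 in the groups labelled SMA, which are nearly level. From P2 to P6 in SMA, 2 of its 4 genes tested lay above 0 and 2 below. S100a8 and S100a9 led the list, at FPKM 1.82 to 4.55 and 1.86 to 4.21. Of the list's genes of marrow precursors, Prtn3 was above 0 in all 6 groups, at FPKM 0.662 to 1.24, and Mpo in all 6, at 0.0822 to 0.330. Elane and Ctsg were listed at 0 in 3 groups each and were at no more than 0.148 elsewhere. The 8 platelet and megakaryocyte markers summed to 44.9, 41.6 and 35.2 in controls and 40.3, 39.8 and 34.6 in the groups labelled SMA. Most of that sum was a locus that joins Gp1bb with another gene, at 29.4 to 34.3, and Pf4 was FPKM 6.83, 5.65 and 3.21 against 4.44, 5.06 and 2.80.

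Endothelial markers, 12 genes, summed to 70.9, 92.9 and 116 in controls and 94.9, 86.9 and 84.8 in the groups labelled SMA. They lay above control at P2 and below it at P6 and P10, with list medians of 0.40, -0.15 and -0.49, whereas the globin sum was lower in SMA at each age. Cldn5, a tight junction protein of vessels, was FPKM 18.3 to 25.9 and Mfsd2a 9.21 to 23.5. The 10 fibroblast and meningeal markers, Dcn and Col1a2 among them, summed to 210, 254 and 250 in controls and 200, 289 and 149 in the groups labelled SMA. Their medians were -0.15 at P2, 0.19 at P6 and -0.70 at P10. The list stood with the globins at P2 and P10 but on the other side at P6, and Igf2 in it was FPKM 36.7 to 56.4. Skeletal muscle markers, which would come with attached tissue, summed to 13.6, 9.53 and 2.84 in controls and 19.6, 9.68 and 3.20 in the groups labelled SMA, led by Acta1 and Mylpf at up to 8.45 and 4.03. Pericyte markers had medians of 0.28, 0.11 and -0.44, with Rgs5 at FPKM up to 34.1 and Vtn at 11.0 to 16.5, and microglia markers 0.41, 0.00 and -0.10, with P2ry12 at 11.2 to 15.7. In these marker lists, 0 genes were called in the comparisons above. Over all genes tested, the share called ran from 0.00455% in the limma fit to 0.631% for P10 against P2 in controls. With shares this small, 0 calls say little about a list of this size.

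**Figure D4:**
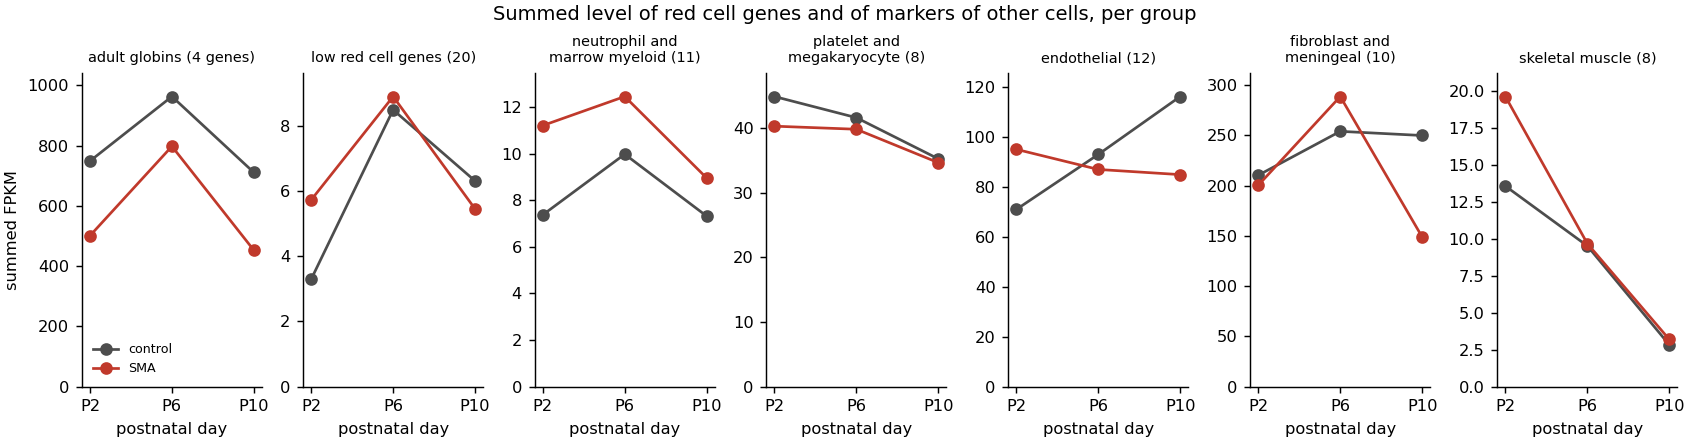
Summed FPKM of the adult globin genes, of the 20 low red cell genes and of 5 lists of markers of other cells against postnatal day, in control (grey) and SMA (red) groups; each panel has its own axis from 0 and the number of genes in brackets. The globin sum is lower in SMA at each age, while the neutrophil sum is higher in SMA and the endothelial and fibroblast sums change sides with age.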

How the data were processed

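Total RNA of whole spinal cord was measured in 18 libraries, 3 in each of 6 groups set by genotype and age in the labels. Per the submitters' processing notes, the authors used FastQC, Bowtie2 2.2.4, TopHat2 2.1.1, Picard, Cufflinks 2.2.1 and Cuffdiff on GRCm38; the annotation release, strand setting and normalization method are not given in the sources used here. The deposited tables hold, per the file headers, FPKM with the bounds of an interval, and estimated counts of fragments with their variance, 1 combined value per group, so values per library were not analysed and p-values measure the spread that the authors' model assigned.

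Genes with FPKM 1 or more in at least 1 compared group, above 0 in each and an OK status were compared by a z test, two-sided, of their log ratio, with the standard error taken from the upper bound of the interval read as 95%, and called at an adjusted p under 0.05 (Benjamini-Hochberg over all genes tested). Differences across ages were fitted on log2(FPKM + 1) by limma 3.58.1 (R 4.3.3), with a pseudocount of 1 and 2 residual degrees of freedom. Both were run on simulated data whose noise followed the assumptions of each test, so how well these assumptions hold here was not checked. Other steps used Python 3.11.15 with matplotlib 3.10.9, numpy 2.4.6, scipy 1.17.1 and pandas 2.3.3. Coordinates and coding sequences are from GENCODE M21 on GRCm38, promoters from RefSeq.

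The members and all 14 lists were chosen with earlier results of these data known. Named genes are the members, Smn1, called list members or else the 2 most abundant of each list, globin and transcription factor genes at FPKM 1 or more, and the 8 genes of most alike pattern; any other was named after its values were seen, and some genes that the rule names are not reported here. Alternatives were the deposited counts, the interval read as that of 1 library, no FPKM minimum, median centring, intervals that do not overlap, a pseudocount of 0.1 and leaving out each age.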

Additional observations from a re-analysis of the deposited data

How the results depend on the processing

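No member was called under any alternative run, and of 287 alternative values of member ratios 285 kept their direction and side of the threshold. The exceptions were P10 over P2 in the groups labelled SMA with log ratios centred on their median, where Hba-a2 was -0.004 and Hbb-bs -0.0368 against 0.05 and 0.02. Reading the interval as that of 1 library, dropping the FPKM minimum or asking for intervals that do not overlap cannot change a member's ratio. Values from those alternatives kept their direction by construction, so the count of 285 is not a measure of robustness. Over all alternatives, SMA against control ran from -0.73 to -0.65 at P2, -0.38 to -0.31 at P6 and -0.82 to -0.77 at P10 for Hba-a1, and from -0.53 to -0.52, -0.33 to -0.24 and -0.62 to -0.58 for Hbb-bs. Other members moved more for their size. At P6 Hbb-bt ran from -0.25 to -0.0495, Hba-a2 from -0.37 to -0.16 and Slc4a1 from -0.40 to -0.25. Alas2 ran from -0.13 to -0.0327 at P2 and from -0.45 to -0.15 at P10, where Slc4a1 ran from -0.72 to -0.34. Across ages Hba-a1 ran from -0.71 to -0.48, Hbb-bs from -0.55 to -0.38, Hbb-bt from -0.45 to -0.15, Hba-a2 from -0.36 to -0.0115, Alas2 from -0.26 to -0.0896 and Slc4a1 from -0.28 to -0.0202. Counts of genes called moved far more. With the interval read as that of 1 library they were 123 at P2 (against 24), 26 at P6 (9), 22 at P10 (8), 920 for P10 against P2 in controls (126) and 44 in SMA (12), 163 for the change of the difference (12), and 98 for P6 against P2 in controls (22) and 31 in SMA (6). By intervals that do not overlap they were 44, 23, 16, 272 and 22 for the first 5 of these, and 54 and 23 for P6 against P2 in controls and SMA. From the deposited counts they were 0 at P6, 0 at P10, 216 for P10 against P2 in controls and 2 in SMA, 23 for the change, and 12 and 0 for P6 against P2. The limma fit across ages called 1 gene, 0 with no FPKM minimum, 0 from counts, 5 without P2, 8 without P6 and 0 without P10. The cause of these shifts was not tested. No paired analysis was possible because the group columns carry no replicate number, and for the same reason no library could be left out in turn. The alternatives of P6 against P2 were chosen after seeing the data.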
